A study of Mus musculus and Rattus norvegicus with 14 samples.

Results

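The genes Fkbp5, Tsc22d3, Zbtb16, Sgk1, Mt1 and Mt2 were examined in mouse heart tissue; the first 4 are classical targets of glucocorticoid hormones and the other two encode metallothioneins. They were chosen by name, with earlier results of these data known. The 6 genes stand among 54532 in the deposited mouse table, of which 13000 were expressed highly enough to be tested (at least 1 FPKM in at least 3 of 12 libraries). All 6 passed this filter. FPKM is a read count divided by gene length and library size, and scaled FPKM denotes these values after a further correction for library size. The study looked for compounds against myocardial fibrosis, the replacement of heart muscle by scar tissue. Its 12 mouse heart libraries comprised 3 from each of 4 groups, labelled Sham and Model for the controls and LQ-40 and SQ-3 for a pair of compounds. Only the code names of these compounds are given, and the submitters describe them as alike in structure. A further 2 libraries came from primary rat cells, in part of heart and in part of bone marrow origin. The labels used here give no strain, age, dose, treatment time, model procedure or hour of collection, and they do not say whether LQ-40 and SQ-3 hearts underwent the model procedure. Nor is it stated whether the 3 libraries in a group were separate animals, so the p-values refer to the spread among libraries, and that spread may be technical.

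Glucocorticoids are adrenal steroids that are released in a daily rhythm and under stress. They bind a receptor (Nr3c1) that is held ready in the cytoplasm by the heat shock protein Hsp90 and its co-chaperones, after which the receptor enters the nucleus and binds palindromic DNA elements near its target genes. Fkbp5 encodes a co-chaperone that lowers the hormone affinity of the receptor and so closes a feedback loop, and Tsc22d3 encodes GILZ, a leucine zipper protein that restrains inflammatory transcription. Zbtb16 encodes PLZF, a zinc finger transcription factor, and Sgk1 encodes a kinase related to Akt that regulates ion channels and transporters. Metallothioneins are small cysteine-rich proteins that bind zinc, copper and cadmium, and their genes respond both to glucocorticoids and to metals, the latter through the zinc-sensing factor Mtf1.

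RefSeq promoter windows (build GRCm38.p6, the assembly known as mm10) were at hand for 5 of the 6 genes, with 12 entries in all, and Zbtb16 had none. The following 3 windows of 280 bases run from 250 bases before the RefSeq start site to 30 bases after it. They were picked for their matches to the motifs named next. Capitals mark matches to the glucocorticoid response element, searched as GNACANNNTGTNC, and to the metal response element core, searched as TGCACNC or TGCGCNC. Both motifs were searched on both strands, so a metal element on the minus strand appears as its reverse complement. The Sgk1 window is chr10:21993640-21993919, the Mt1 window chr8:94178839-94179118 and the Mt2 window chr8:94172368-94172647, all on the plus strand.
Sgk1: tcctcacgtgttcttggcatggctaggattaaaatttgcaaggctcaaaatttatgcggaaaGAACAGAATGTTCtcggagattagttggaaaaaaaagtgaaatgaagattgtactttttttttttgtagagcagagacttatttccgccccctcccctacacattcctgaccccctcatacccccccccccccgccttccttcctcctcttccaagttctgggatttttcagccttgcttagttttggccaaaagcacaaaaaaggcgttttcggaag
Mt1: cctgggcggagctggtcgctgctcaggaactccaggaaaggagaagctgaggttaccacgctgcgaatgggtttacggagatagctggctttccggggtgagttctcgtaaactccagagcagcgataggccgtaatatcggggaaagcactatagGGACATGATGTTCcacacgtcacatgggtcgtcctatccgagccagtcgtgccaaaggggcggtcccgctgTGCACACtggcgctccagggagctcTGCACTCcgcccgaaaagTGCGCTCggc
Mt2: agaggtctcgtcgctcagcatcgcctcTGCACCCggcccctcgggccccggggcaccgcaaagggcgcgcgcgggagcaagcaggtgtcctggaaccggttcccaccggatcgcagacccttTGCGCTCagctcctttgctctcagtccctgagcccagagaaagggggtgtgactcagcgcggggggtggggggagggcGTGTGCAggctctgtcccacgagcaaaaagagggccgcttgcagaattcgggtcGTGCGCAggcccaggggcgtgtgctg
The Sgk1 window, 1 of 6 listed for that gene, held a glucocorticoid element 188 bases upstream of the start. The Mt1 window held a glucocorticoid element 94 bases upstream and 3 metal cores between 23 bases upstream and 20 bases downstream of the start. The Mt2 window held 4 metal cores, the farthest 223 bases upstream, and no match to the glucocorticoid element. Of 32851 mouse promoter windows, 0.475% held the glucocorticoid element, 25.7% held at least 1 metal core and 1.97% held 3 or more. The single Fkbp5 window and the 3 Tsc22d3 windows had no match to the glucocorticoid element, which says only that these letters are not in them. A match is a description of the letters and not evidence of binding.

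Reads counted in genes numbered 13085370 to 16698987 a library, of which 10.76% to 23.65% were mitochondrial. The heart label fitted the cardiomyocyte markers, none of whose 6 genes was at 0 in any library. The summed level of those 6 markers was 15599 to 17151 scaled FPKM in Sham and 7892 to 9441 in Model, and 6373 to 12771 and 9840 to 12820 in LQ-40 and SQ-3. The 5 fibroblast markers summed to 341 to 461 in Sham and 2573 to 2800 in Model, and to 860 to 3142 and 1382 to 1676 in LQ-40 and SQ-3. Of the marker genes, 5 of 6 cardiomyocyte markers fell, and 5 of 5 fibroblast and 5 of 6 macrophage markers rose, in Model against Sham by limma. Of all genes, 38.9% were called in that comparison. In bulk tissue, fewer cells of a type and less RNA per cell cannot be told apart, and the part of tissue composition in the differences below was not tested.

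The 6 genes spanned a wide range of levels. Per unit of length, Mt1 was the most abundant, with a mean of 82.3 scaled FPKM over the 12 libraries, followed by Tsc22d3 (41.2), Sgk1 (27.8), Zbtb16 (12.1), Fkbp5 (7.68) and Mt2 (3.95). The ranges of neighbours in this order overlapped over the 12 libraries. Mt2 rested on 14 to 67 reads a library, while the other 5 genes had 148 to 4451. Mt2 is also uncertain for another reason: 749 bases of it overlap the antisense gene Gm45774, 45.8% of its 50-base windows occur in that gene's transcripts too, and the strand setting of the read counting is not given. No other member shared more than 0.684% of its windows with another gene.

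Fkbp5 (mm10 chr17:28399094-28517527, minus strand) was measured at 8.79, 5.18 and 3.43 scaled FPKM in Sham libraries 1 to 3 and at 7.02, 10.8 and 14.9 in Model. It stood at 5.24, 13.4 and 5.81 in LQ-40 and at 3.88, 7.51 and 6.24 in SQ-3. The highest values were Model 3 and LQ-40 2, and every group overlapped every other group. Model averaged 10.9 ± 3.93 (SD, n = 3) against 5.80 ± 2.74 in Sham, a log2 difference of 0.83 (SE 0.39, limma adjusted p = 0.110) that did not pass the threshold. All fold changes and log2 differences were computed after adding 1 to the scaled FPKM, so those of low genes are understated. SQ-3 averaged 5.88 ± 1.84, a log2 difference of -0.77 from Model (limma adjusted p = 0.380).

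Tsc22d3 (chrX:140539528-140600659, minus strand) stood at 40.3, 38.8 and 32.1 scaled FPKM in Sham and at 34.7, 42.9 and 60.1 in Model. Its values were 35.8, 56.8 and 35.6 in LQ-40 and 31.5, 54.0 and 31.8 in SQ-3. A single library was high in each of Model, LQ-40 and SQ-3, and all groups overlapped. The group means lay between 37.1 and 45.9, and the limma adjusted p of the 6 comparisons was 0.437 or more.

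Zbtb16 (chr9:48654297-48836222, minus strand) was the member that differed most between groups. Its values were 21.6, 16.6 and 13.3 scaled FPKM in Sham and 7.47, 16.8 and 18.1 in Model. They were 13.7, 18.4 and 5.26 in LQ-40, but 7.15, 4.65 and 2.21 in SQ-3. All 3 SQ-3 libraries lay below every Sham and every Model library, but LQ-40 3 lay within the SQ-3 range. SQ-3 averaged 4.67 ± 2.47 (SD, n = 3) and Sham 17.2 ± 4.22, so that Zbtb16 fell 3.38-fold in SQ-3 against Sham (log2 difference -1.76, SE 0.46, limma adjusted p = 0.0481). This call was lost in 9 of 13 alternatives, among them the omission of any single one of the 6 libraries (adjusted p 0.0606 to 0.149), and the adjusted p ranged from 0.0219 to 0.149 over all of them. Beside this result, 5 of 5 fibroblast markers and 2 of 6 macrophage markers were called higher in SQ-3 than in Sham, where 6.68% of all genes were called. The part of these markers in it was not tested. The 6 cardiomyocyte markers were lower in SQ-3 without overlap in 6 of 6 (median log2 difference -0.71), beside 36.6% of all genes without overlap. Of these markers, 5 had an unadjusted p under 0.05 by limma, beside 3642 of all 13000 genes, though limma called none of them. Against Model the log2 difference was -1.43 (SE 0.46), with an unadjusted p of 0.0107 by limma and an adjusted p of 0.244, which did not pass.

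Sgk1 (chr10:21882184-21999903, plus strand) was measured at 35.6, 28.2 and 24.4 scaled FPKM in Sham and at 26.2, 40.4 and 34.5 in Model. It was lowest in LQ-40, at 22.4, 20.3 and 19.4, and stood at 21.2, 32.3 and 28.6 in SQ-3. The LQ-40 libraries lay close together and below all Sham and all Model libraries, but overlapped SQ-3. LQ-40 averaged 20.7 ± 1.53 against 33.7 ± 7.09 in Model, a log2 difference of -0.66 (SE 0.20) with a limma adjusted p of 0.188. Against Sham the log2 difference was -0.47 (limma adjusted p = 0.112). Neither passed the threshold.

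Mt1 (chr8:94179082-94180327, plus strand) stood at 127, 79.4 and 67.8 scaled FPKM in Sham and at 46.9, 70.9 and 80.4 in Model. It was measured at 87.0, 88.0 and 73.1 in LQ-40 and at 57.4, 106 and 104 in SQ-3. Sham 1 was the highest and Model 1 the lowest of the 12 libraries, and the groups overlapped in all comparisons. The mean was 91.5 ± 31.5 for Sham, 66.1 ± 17.3 for Model, 82.7 ± 8.32 for LQ-40 and 89.0 ± 27.4 for SQ-3 (SD, n = 3 each). The limma adjusted p of its 6 comparisons was 0.251 or more.

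Mt2 (chr8:94172664-94173568, plus strand) lies 5513 bases upstream of Mt1. Its values were 3.58, 1.77 and 2.80 scaled FPKM in Sham and 1.38, 2.28 and 5.38 in Model. They were 4.20, 7.18 and 6.55 in LQ-40, but 2.35, 5.53 and 4.42 in SQ-3. Each LQ-40 library was above each Sham library, while Model 3 and SQ-3 libraries reached into the LQ-40 range. LQ-40 averaged 5.98 ± 1.57 against 2.71 ± 0.907 in Sham, a log2 difference of 0.91 (SE 0.36, limma adjusted p = 0.0980) that did not pass. Mt1 exceeded Mt2 by 11.2-fold (LQ-40 3) to 44.9-fold (Sham 2) per unit of length. Of the other metallothionein genes, Mt3 reached at most 0.296 scaled FPKM and Mt4 was at 0 in all 12 libraries.

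**Figure D1:**
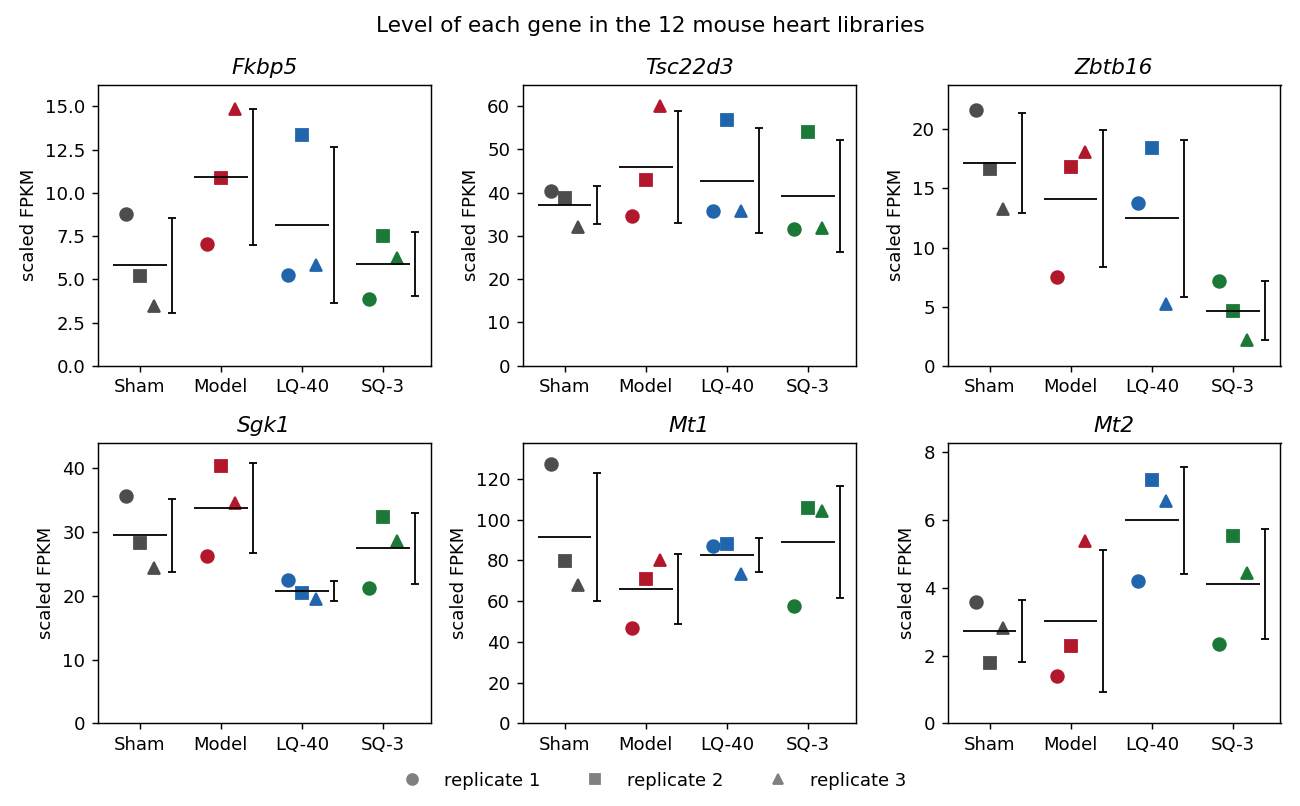
Scaled FPKM (y axis, linear from 0) of each gene by group (x axis); points are libraries, with the marker shape giving the replicate number, horizontal lines are means and bars are ± 1 SD (n = 3). The 3 SQ-3 libraries for Zbtb16 (2.21 to 7.15) lie below the Sham libraries (13.3 to 21.6), whereas the groups overlap for Fkbp5, Tsc22d3 and Mt1.

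In Model against Sham, none of the 6 genes passed limma's test and limma-voom called none, where limma called 38.9% of all 13000 genes. None had an unadjusted p under 0.05 by limma, beside 6369 of all 13000 genes. The median log2 difference of the 6 genes was 0.10, beside 0.03 for all genes, and no member had groups without overlap, against 55.5% of all genes. Fkbp5, at 0.83, had the largest difference, and 17.0% of all genes differed by more in either direction.

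In LQ-40 against Model, limma called none of the 6 members and 0.669% of all genes. Of the 6, 2 (Sgk1 and Mt2) had an unadjusted p under 0.05 by limma, beside 1579 of all 13000 genes. By limma-voom none was called, and the median log2 difference was -0.16 beside 0.01 for all genes. Sgk1 was the 1 member without overlap, where 18.1% of all genes had none. In size of difference, 2.28% of all genes exceeded Mt2 and 4.98% exceeded Sgk1. In SQ-3 against Model, limma again called none, beside 0.346% of all genes, and limma-voom called none. Zbtb16 was the 1 member with an unadjusted p under 0.05 by limma (1847 of all 13000 genes) and without overlap (26.4% of all genes). The median of the 6 was -0.26 beside -0.01. Of all genes, 0.369% differed by more than Zbtb16 and 3.06% by more than Fkbp5. These comparisons share the Model libraries.

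Against Sham, LQ-40 differed in none of the 6 genes by limma, beside 15.8% of all genes called, and limma-voom called none. Sgk1 and Mt2 had an unadjusted p under 0.05 by limma (4644 of all 13000 genes) and no overlap (33.2% of all genes). SQ-3 against Sham gave the 1 call, Zbtb16, which limma-voom called too, where 6.68% of all genes were called (1.82% lower) and 36.6% had no overlap. Of all genes, 1.3% differed by more than Zbtb16 there.

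LQ-40 and SQ-3 were compared directly, although the labels used here do not say whether doses and times matched. Limma called 0 of 13000 genes (0%), with 394 at an unadjusted p under 0.05, and limma-voom called 0. No member had groups without overlap, against 6.12% of all genes. Zbtb16 showed the largest difference of the 6 by limma, at 12.5 ± 6.66 in LQ-40 against 4.67 ± 2.47 in SQ-3 (log2 difference 1.20, 95% interval 0.18 to 2.22, limma adjusted p = 0.9995). The interval ran from -0.51 to 1.19 for Fkbp5, from -0.45 to 0.72 for Tsc22d3 and from -0.80 to 0.06 for Sgk1. It ran from -0.71 to 0.59 for Mt1 and from -0.32 to 1.28 for Mt2. These intervals are not adjusted for the number of genes, and those that include 0 do not show that the compounds act alike.

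**Figure D2:**
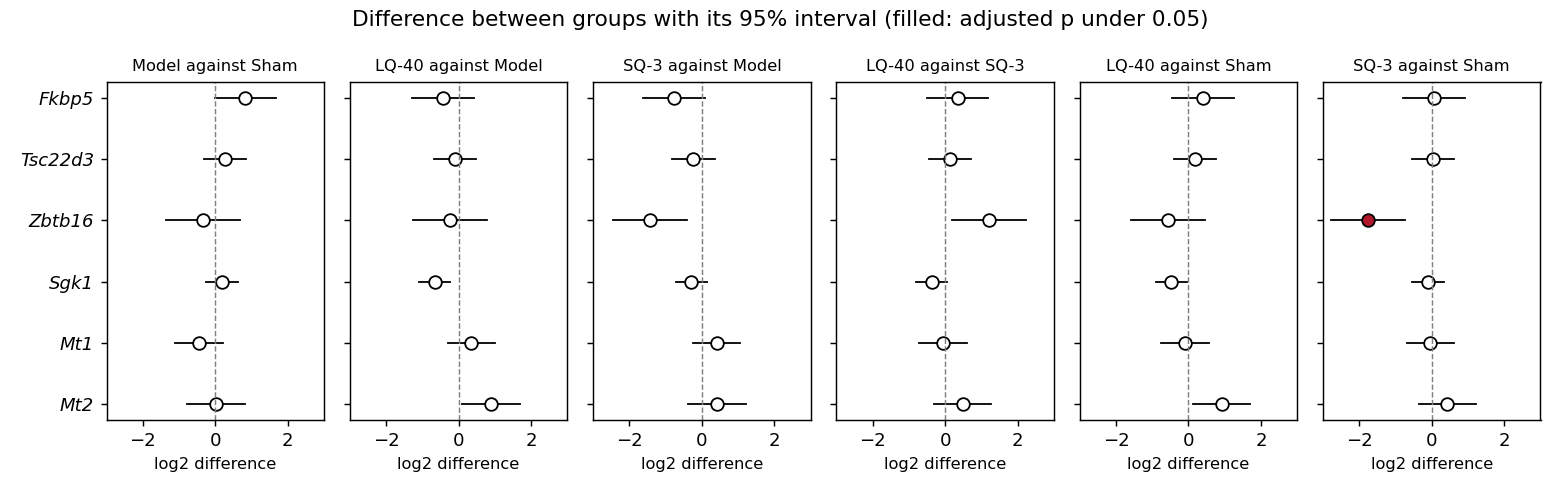
Log2 difference of scaled FPKM + 1 (x axis) for each gene in the 6 comparisons, the first-named group minus the second; points are limma estimates and lines unadjusted 95% intervals, and a filled point has an adjusted p under 0.05. The 1 filled point of 36 is Zbtb16 in SQ-3 against Sham, at -1.76.

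The share of log2 variance that lay between groups was 60.6% for Zbtb16 and 56.6% for Sgk1, above the median gene (50.2%), and 44.8% for Mt2, 35.8% for Fkbp5, 22.6% for Mt1 and 12.02% for Tsc22d3, below it. The members' within-group SD on the log2 scale was 0.26 (Sgk1) to 0.66 (Zbtb16), against a median of 0.19 for all genes tested. The same libraries stood out for different members: Sham 1 was the highest Sham library for 6 of 6 genes and Model 1 the lowest Model library for 6 of 6. LQ-40 2 was the highest LQ-40 library for 5 of 6 (all but Sgk1), and SQ-3 2 the highest SQ-3 library for 5 of 6 (all but Zbtb16). Of all genes tested, 37.6% were highest in Sham 1 within Sham and 34.5% lowest in Model 1 within Model. Within LQ-40, 24.8% were highest in LQ-40 2, and within SQ-3, 42.1% in SQ-3 2. Fkbp5, Tsc22d3, Mt1 and Mt2 showed all 4 of these extremes together, as did 184 of all 13000 genes tested (1.42%). The pattern was defined after the values were seen, so these counts are a description.

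Each gene's deviation from its group mean (log2 scale, 12 libraries, 3 in each group) was then compared between genes, a measure that was also chosen after the values were seen. All 15 pairs of members were positively correlated, with a median Pearson r of 0.61. Of all genes, 50.4% (Zbtb16) to 54.3% (Fkbp5) had a positive r with a given member. Sgk1 and Mt1 were the closest pair (r = 0.92, Spearman rho = 0.87, r = 0.84 without Model 1 and SQ-3 1, the libraries farthest from the median of Sgk1). Fkbp5 and Tsc22d3 followed (r = 0.84, rho = 0.75, r = 0.84 without Sham 1 and LQ-40 2), and Mt1 and Mt2 reached 0.71 (rho = 0.83, r = 0.50 without Model 1 and SQ-3 1). Sgk1 and Mt2, at 0.51, fell to 0.12 when Model 1 and SQ-3 1 were left out. Zbtb16 had an r of 0.55 with Tsc22d3 (rho = 0.49, r = 0.52 without LQ-40 2 and SQ-3 2) and of 0.47 with Fkbp5 (rho = 0.52, r = 0.26 without Sham 1 and LQ-40 2). Its r with Sgk1, Mt1 and Mt2 was 0.29, 0.26 and 0.14, and each was between -0.05 and -0.01 without Model 1 and LQ-40 3, on which these relations rest. Leaving out each library in turn gave medians of 0.51 to 0.68 over the 15 pairs. Without removing group means, r was 0.34 for Sgk1 and Mt1, 0.84 for Fkbp5 and Tsc22d3 and 0.57 for Mt1 and Mt2. On that measure only Sgk1 with Mt2 (-0.23) and Zbtb16 with Mt2 (-0.13) were negative. All these values share 12 libraries and their scaling.

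The other glucocorticoid-induced genes on the list moved with Fkbp5 across these deviations: 18 of 21 tested genes had a positive r, with a median of 0.66, beside 54.3% of all genes and a median of 0.04. The list was chosen with earlier results of these data known, so these values are a description and not independent support. Mertk, a receptor for the uptake of dying cells, had an r of 0.85, Klf9, a transcription factor, 0.83, and Errfi1, an inhibitor of the EGF receptor, 0.80. The clock gene Per1 reached 0.74. Angptl4, Lcn2 and Bcl6 were the 3 exceptions, at -0.16, -0.14 and -0.22. The median over the list stayed between 0.62 and 0.73 when each library was left out. With Tsc22d3, Sgk1, Mt1 and Mt2 the list's median r was 0.53, 0.52, 0.59 and 0.42, and with Zbtb16 it was 0.20. The 17 zinc transport and metal response genes had a median r of 0.03 with Fkbp5, -0.25 with Mt1 and 0.13 with Mt2.

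Some other quantities varied with the same deviations. The summed endothelial markers (5 genes, none at 0, 189 to 277 scaled FPKM over all libraries) had an r of -0.64 with Fkbp5 across the 12 libraries, and the neutrophil markers (5 genes, none at 0, 6.42 to 82.6) had an r of -0.62. Read depth had an r of 0.44, the mitochondrial share 0.18, cardiomyocyte markers 0.15 and fibroblast markers -0.01. With the mean deviation of the 6 members, r was 0.49 for read depth, -0.47 for neutrophil markers and 0.45 for skeletal muscle markers. It was -0.44 for endothelial markers and -0.44 for lymphocyte markers. The part of these quantities in the shared variation was not tested.

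**Figure D3:**
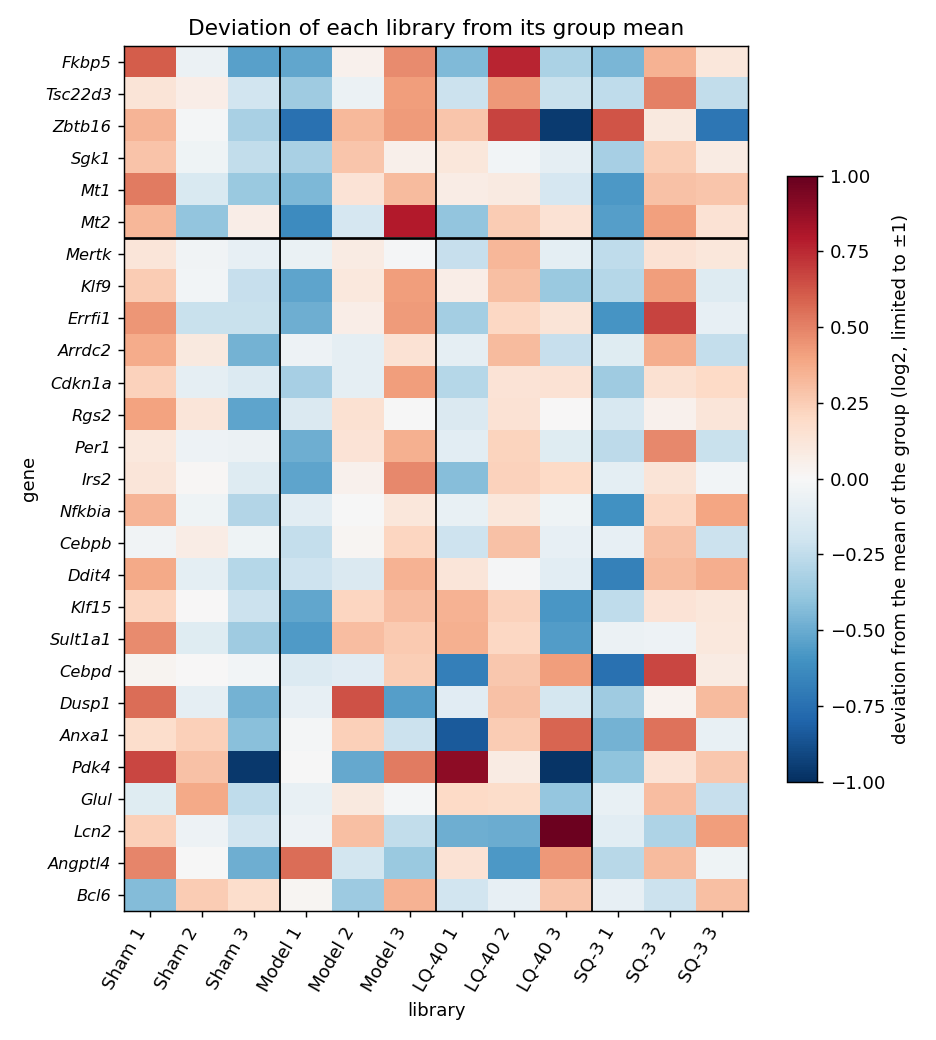
Deviation of each library (columns) from the mean of its group on the log2(scaled FPKM + 1) scale, red above and blue below, for the 6 genes (above the black line) and the 21 other glucocorticoid-induced genes tested (below it, ordered by their r with Fkbp5). The columns Sham 1, LQ-40 2 and SQ-3 2 are red and Model 1 is blue for most of the upper rows, while Angptl4 and Bcl6, at the bottom, differ.

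Over the 12 libraries as they stand, without removing group means, the closest genes to each member were named by a rule that took the 3 highest Pearson r among named genes whose mean scaled FPKM was 2 or higher. For Fkbp5 they were Zkscan5, Map3k6 and Spsb1 (r = 0.89, 0.89 and 0.88). For Tsc22d3 they were Spsb1, Inafm2 and Trpm7 (0.89, 0.87 and 0.86). For Sgk1 they were Csrnp1, Pgf and Ube2g2 (0.85, 0.82 and 0.80). Zbtb16 was closest to Rnf144b, Fam117b and Mcf2l (0.92, 0.91 and 0.89). Mt1 was closest to Cirbp, which encodes a cold-inducible RNA-binding protein, and then to Hmgn5 and C1d (0.91, 0.90 and 0.88), and Mt2 to Wdsub1, Atraid and Thrap3 (0.89, 0.84 and 0.83). Spsb1 was the only gene named for 2 members.

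Other genes of the pathway passed the test between Model and Sham. Of the 21 other glucocorticoid-induced genes tested, 9 rose and 3 fell in Model, with a median log2 difference of 0.33 beside 0.03 for all genes; 57.1% were called beside 38.9% of all genes (20.9% higher and 18% lower). Cdkn1a, a cell cycle inhibitor, was 34.8 ± 9.84 in Model and 11.3 ± 1.75 in Sham (SD, n = 3 each; log2 difference 1.52, SE 0.22, limma adjusted p = 0.000973). Errfi1 rose by 1.58, Irs2, an adaptor of insulin signalling, by 1.20, and Anxa1, an anti-inflammatory protein, by 1.70 on the log2 scale (limma adjusted p 0.00529, 0.00403 and 0.00541). The genes that fell were Klf15, Rgs2 and Sult1a1. Many genes of this list also answer to other signals, and the list's change does not measure hormone action.

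The receptor gene itself, Nr3c1, was 19.9 ± 0.157 in Model and 21.9 ± 3.29 scaled FPKM in Sham (log2 difference -0.12, 95% interval -0.38 to 0.14, limma adjusted p = 0.439). Of the 6 tested genes for steroid receptors and hormone access, 3 fell and 1 rose in Model (66.7% called, beside 38.9% of all genes). Nr3c2, the mineralocorticoid receptor, fell by 1.12, Hsd11b1, which regenerates active glucocorticoid inside cells, fell by 1.16, and Abcb1a, a drug and steroid efflux pump, fell by 0.84 on the log2 scale (limma adjusted p 0.00193, 0.00684 and 0.00517). H6pd, which supplies the cofactor of Hsd11b1, rose by 0.70 (limma adjusted p = 0.00505). The list's median was -0.48.

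Among 10 receptor chaperones, 4 rose and 1 fell in Model (50% called, beside 38.9% of all genes), with a median of 0.16. Hsp90aa1, an Hsp90 gene, rose by 1.05, Dnaja1 by 0.87 and Dnajb1 by 0.76 on the log2 scale (limma adjusted p 0.00192, 0.00150 and 0.00317). Of 17 zinc transport and metal response genes tested, 11 rose and 2 fell (76.5% called), with a median of 0.31. Slc39a8, 1 of the 11, had 0.102 to 0.528 scaled FPKM in Sham. It passed the expression filter only through other groups, which favours a rise over a fall. Slc39a6, a zinc importer, rose by 1.16, and Slc30a1, a zinc exporter, fell by 0.51 (limma adjusted p 0.00274 and 0.00667). Mtf1 differed by 0.17 (limma adjusted p = 0.313).

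The interleukin 6 family and its factor Stat3 are other known inducers of metallothioneins. The list taken for them also held Socs3, Saa3, Hp, Junb and Myc, and its cytokines Lif and Osm were too low to be tested. In that list 8 of 10 genes rose and none fell in Model (80% called, beside 38.9% of all genes), with a median of 1.06. Il6, 1 of the 8, had 0 to 0.0642 scaled FPKM in Sham and 0.868 to 1.46 in Model. Saa3, which was not called, had at most 0.391 in Sham. Both passed the expression filter only through libraries outside Sham, which favours a rise over a fall. Socs3, a feedback inhibitor, rose by 1.86 and Osmr, a receptor of oncostatin M, by 1.07 (limma adjusted p 0.00719 and 0.00203). Of the 15 relatives of the 6 genes tested, 6 rose and 2 fell (53.3% called), with a median of 0.24. Fkbp1b, 1 of those that rose, also passed the filter only outside Sham, where it had at most 0.915 scaled FPKM. Fkbp10, a collagen chaperone of the endoplasmic reticulum, rose by 1.51 and Fkbp3 fell by 1.05 (limma adjusted p 0.00134 and 0.00360). Of 8 partners and substrates of Sgk1, 2 rose and 2 fell (50% called), with a median of 0.07. All of these Model changes stood beside the lower cardiomyocyte and higher fibroblast and macrophage marker levels given above.

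Few listed genes passed the adjusted threshold between the compound groups and Model. Against Model, LQ-40 had 2 called genes in these lists, both lower, beside 0.485% of all genes called lower. They were 1 of 21 other glucocorticoid-induced genes (4.76%) and 1 of 10 chaperones (10%). The other lists, with 6, 17, 10, 15 and 8 genes tested, had none. Cdkn1a was lower in LQ-40, at 9.45 ± 1.69 (log2 difference -1.76, SE 0.22, limma adjusted p = 0.00502; 0.101 when only these groups were fitted). Hsp90aa1 was lower too, at 46.4 ± 9.28 against 93.6 ± 5.40 (log2 difference -1.01, limma adjusted p = 0.0258), a call lost in 7 of 13 alternatives (adjusted p up to 0.168). SQ-3 had 3 called genes against Model, all lower, beside 0.269% of all genes called lower. They were 1 of 21 other glucocorticoid-induced genes (4.76%) and 2 of 10 chaperones (20%), with none in the other lists. Cebpb, a transcription factor of the acute phase, was lower at 15.0 ± 3.01 against 32.2 ± 5.17 (log2 difference -1.06, limma adjusted p = 0.0305, lost in 7 of 13 alternatives with adjusted p up to 0.151). The chaperones Ptges3 and Dnaja1 were lower by a log2 difference of -0.50 and -0.78 (limma adjusted p = 0.0465 each, lost in 9 of 13 alternatives with adjusted p up to 0.230 and 0.223). At an unadjusted p under 0.05 by limma, LQ-40 had 7 and SQ-3 8 of 10 chaperones against Model (1579 and 1847 of all 13000 genes). In each, 8 of 10 chaperones had no overlap (18.1% and 26.4% of all genes), with medians of -0.43 and -0.48. Of the 21 other glucocorticoid-induced genes, 7 and 8 had such a p. Against Sham, LQ-40 had 3 higher and 1 lower of the 21 other glucocorticoid-induced genes and 5 higher of the 17 zinc genes by limma. It had 3 higher of the 10 genes of the interleukin 6 and Stat3 list, beside 15.8% of all genes. SQ-3 had 1 higher, 0 and 0 in those lists, beside 6.68% of all genes. At an unadjusted p under 0.05 by limma, LQ-40 had 6, 8 and 8 against Sham (4644 of all 13000 genes) and SQ-3 had 5, 10 and 3 (3642 of all 13000). By limma-voom 3, 5 and 3 were called for LQ-40, and 1, 0 and 0 for SQ-3. Beside these calls, 5 of 5 fibroblast and 5 of 6 macrophage markers were called higher and 2 of 6 cardiomyocyte markers lower in LQ-40 than in Sham, and their part was not tested. The number of all genes called for LQ-40 against Sham ran from 408 without LQ-40 2 to 4372 without LQ-40 1. No gene of these lists was called between LQ-40 and SQ-3, by limma or limma-voom, and a call against Model in 1 compound group alone does not show that the compounds differ.

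**Figure D4:**
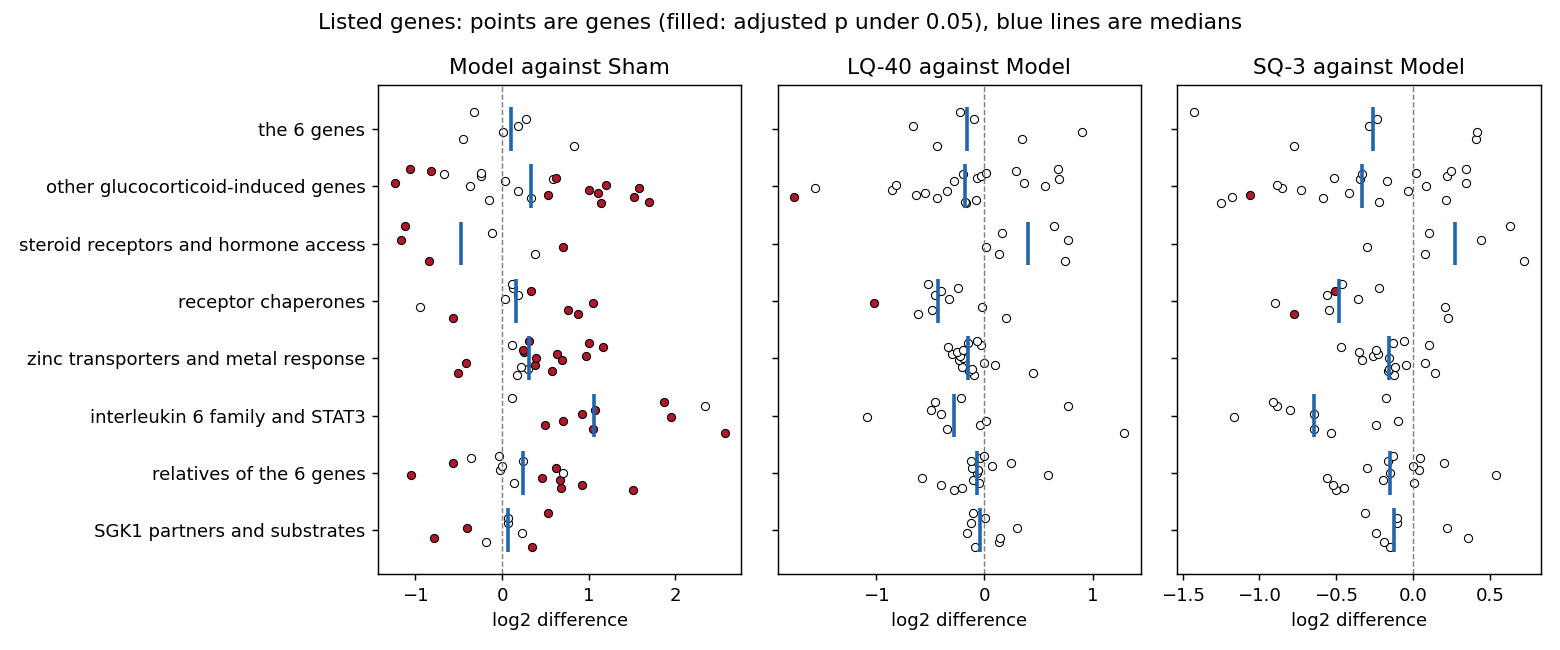
Log2 difference of scaled FPKM + 1 (x axis, own scale in each panel) of the 6 genes and of each tested gene in 7 lists (rows) for Model against Sham, LQ-40 against Model and SQ-3 against Model; filled points have a limma adjusted p under 0.05 and blue lines are list medians. Filled points are common in the first panel (9 higher and 3 lower among the other glucocorticoid-induced genes), number 2 and 3 in the other panels, and are absent from the row of the 6 genes.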

How the data were processed

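Per the labels' protocols, poly-A RNA was taken from trizol extracts. Named in the submitters' processing notes, without roles, are mm10, featureCounts 1.5.0-p3, HISAT2 2.0.5 and fastp. The authors deposited FPKM per gene; the strand setting of counting is not given in the sources used here. FPKM times gene length gave whole reads for 100.0% of values (tolerance 0.02 of a read), used for limma-voom only. Each mouse library was then scaled by its median ratio to the mean library over 10422 genes. Genes with at least 1 FPKM in 3 of 12 libraries (13000) were fitted as log2(scaled FPKM + 1), all 12 libraries together, with limma 3.58.1 in R 4.3.3 (eBayes with trend), two-sided, Benjamini-Hochberg adjusted, threshold 0.05. The script was tested on simulated data. Alternatives were deposited scaling, quantile normalization, a pseudocount of 0.1, no filter, limma-voom, a replicate block, only the 2 groups compared, and leaving out each library. Named genes were the 6 members, up to 4 called genes of each list by smallest p with up to 3 others as values, and the 3 closest genes of each member; not every eligible gene is printed. The members and lists were chosen with earlier results of these data known. Promoter motifs were searched in RefSeq windows.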

Additional observations from a re-analysis of the deposited data

Results flagged for a closer look

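The rat libraries lie outside the group comparisons, with no replicate and no test. The primary cells were of 3 types, the macrophages being of bone marrow origin and the others of heart origin. The libraries were 1 of these cells in 2D and 1 of their 3D co-culture. Their recovered-read ratios, 3D over 2D after depth scaling, are given with exact 95% binomial intervals that cover counting error only. Mt2A had a ratio of 4.60 (3.93 to 5.41), from 196 to 777 reads, and stood at 37.9 and 174 scaled FPKM. The Mt1 entry on chromosome 17 had a ratio of 1.74 (1.12 to 2.73), from 36 to 54 reads. The glucocorticoid-responsive genes stayed nearer to 1: Fkbp5 had 0.940 (0.842 to 1.05), Tsc22d3 0.882 (0.793 to 0.980) and Sgk1 0.958 (0.884 to 1.04). Zbtb16, at 14 reads in each library, had 1.16 (0.513 to 2.63). Of 13407 rat genes that reached 1 FPKM in 2D or 3D, 7.47% differed more than 2-fold, as Mt2A did. Mt3 and Mt4 had 0 reads in both.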

How the results depend on the processing

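Over 36 member results and 13 alternatives (468 values), 429 kept their direction and their side of the threshold. The 9 lost calls were all of Zbtb16 in SQ-3 against Sham, and no uncalled member reached the threshold (lowest adjusted p 0.0542). Directions turned 30 times, in 13 uncalled results. Mt2 in Model against Sham (0.02) became -0.019 with deposited scaling, -0.082 with quantile normalization, -0.015 with a pseudocount of 0.1 and -0.014 with limma-voom. Quantile normalization gave Mt1 0.052 in LQ-40 and 0.066 in SQ-3 against Sham, and deposited scaling gave Tsc22d3 -0.0045 in SQ-3 against Sham. With 1 library left out, differences that turned ranged in Model against Sham from -0.54 to 0.046 for Zbtb16 (above 0 without Model 1) and from -0.38 to 0.33 for Mt2. In LQ-40 against Model they ranged from -0.32 to 0.11 for Tsc22d3 and from -0.60 to 0.25 for Zbtb16 (above 0 without LQ-40 3). In LQ-40 against SQ-3 the ranges were -0.039 to 0.56 for Fkbp5 and -0.082 to 0.39 for Tsc22d3 (both below 0 without LQ-40 2), and -0.34 to 0.090 for Mt1. Against Sham, LQ-40 ranged from -0.046 to 0.28 for Tsc22d3 and from -0.28 to 0.16 for Mt1, and SQ-3 from -0.22 to 0.36 for Fkbp5, -0.21 to 0.17 for Tsc22d3, -0.23 to 0.063 for Sgk1 and -0.23 to 0.25 for Mt1.

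Counts of called genes moved more than the members. LQ-40 against Model gave 87 calls, 48 with no filter and 14 with only the 2 groups. LQ-40 against SQ-3 gave 2 with no filter. LQ-40 against Sham gave 2049, 774 with no filter and 230 with only the 2 groups, and SQ-3 against Sham 868, and 262 with no filter. Leaving out 1 library gave 3288 to 4498 calls in Model against Sham (main 5053), 31 to 155 in LQ-40 against Model, 12 to 26 in SQ-3 against Model (main 45) and 0 to 1 in LQ-40 against SQ-3. It gave 408 (without LQ-40 2) to 4372 (without LQ-40 1) in LQ-40 against Sham and 227 to 444 in SQ-3 against Sham. Higher and lower calls in Model against Sham were 2718 and 2335, but 2482 and 2604 with deposited scaling. The median-ratio factors, by which deposited values are not divided, were 1.027 to 1.032 in Sham and 0.9916 to 0.998 in Model. The cause was not tested.

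Over 18 pairs of same-numbered libraries, deviations correlated at -0.27 to 0.22, with 3 over 0.1. The closest LQ-40 library to each Sham library was the same-numbered one (r = 0.15, 0.08 and 0.12 for numbers 1, 2 and 3). Whether replicate numbers pair the samples cannot be settled from these values, and the labels do not say. With the numbers as a replicate block, SQ-3 against Model gave 29 calls, and Zbtb16 in SQ-3 against Sham had an adjusted p of 0.0545. Depth limits Mt2 most.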

Other observations

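With group means removed, the closest genes were in part those named over the libraries as they stand: Zkscan5, Spsb1, Rnf144b and Cirbp were again among the 3 closest to Fkbp5, Tsc22d3, Zbtb16 and Mt1. For Fkbp5 they were the pseudogene Gm15501 (r = 0.95), Jade2 (0.93) and Zkscan5 (0.92), and for Tsc22d3 Spsb1 (0.95), Cebpb (0.94) and Bcl2l1 (0.93). Zbtb16 was closest to Rnf144b (0.95), the clock gene Per2 (0.90) and Elp5 (0.89). Mt1 was closest to Cirbp (0.95), Sgk1 and Mt1 shared Smim7 (both 0.95), and Mt2 was close to Mapk6 (0.95) and to Cdkn1a (0.94). For Zbtb16, none of the 10 tested genes of the interleukin 6 and Stat3 list had a positive r, with a median of -0.54. These are the highest of 13000 genes over 12 libraries and are given as a description.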
